A study of Mus musculus with 32 samples.

Results

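The genes followed here are 33 genes of glycolysis and of the hypoxia response in mouse bone marrow-derived macrophages, cells grown out of marrow in culture. They were chosen by name, from glucose uptake to lactate export together with Hif1a, its hydroxylases and known hypoxia-inducible genes. Earlier results of these data were known when the choice was made. All 33 were found by symbol among 24885 gene identifiers in a table of read counts, and all 33 passed the filter on low counts. The 32 libraries formed 8 groups of 4 that crossed genotype, medium and LPS, the bacterial product that activates macrophages. The wild-type cells and the Trem2-/- cells (T2KO in the labels, from mice of an earlier published line, called knockout below) were both labelled C57BL/6. All were kept overnight in complete RPMI in which M-CSF, a macrophage growth factor, was either low or normal, and either had 4 hours of LPS at a dose of 10 ng/ml or had none (unstimulated below). The medium held LCCM at 0.5% or 10%, and which of these was called low is inferred from the order of size (0.5% low, 10% normal). Whether the libraries of a group were separate mice or separate cultures is not in the labels, so each p below measures only the spread between libraries (n = 4 in every group). The study's title ties TREM2 to energy metabolism, and the comparisons below ask how the glycolytic and hypoxia-inducible transcripts differed with medium, LPS and genotype.

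Glycolysis splits glucose into pyruvate in the cytosol, and many cells then reduce pyruvate to lactate and export it. Growth factors and inflammatory signals both raise this flux in macrophages, and LPS-activated macrophages are known for high glucose uptake and lactate release. HIF-1, made of the regulated subunit HIF-1α (Hif1a) and a constitutive partner, switches on most glycolytic genes. Oxygen-dependent prolyl hydroxylases (Egln1, Egln3) mark HIF-1α for destruction, so its activity is set largely at the protein level, which mRNA counts do not show. HIF-1 also raises genes outside glycolysis, such as the angiogenic factor Vegfa, the mitophagy receptor Bnip3 and the collagen prolyl hydroxylase P4ha1. HIF-1 binds DNA at short elements with the core ACGTG or GCGTG.

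Sequences upstream of 7 members are shown because these members moved in different ways below and differ in that core. They come from RefSeq on GRCm38.p6 (the mm10 build), and 32 of the 33 members matched an entry. Each window holds the 250 bases before the 5′-most start that the table lists, cut to 237 bases for Bnip3 where an exon of GENCODE vM21 would begin. For Ldha and Hif1a that start lies inside the annotated gene range. They are written 5′ to 3′ on the strand of the gene, with each ACGTG or GCGTG on either strand in capitals (on the other strand these read CACGT and CACGC). The windows are chrX:106186850-106187099 (plus strand) for Pgk1, chr7:46845554-46845803 (plus) for Ldha, chr19:41911621-41911870 (plus) for Pgam1, chr7:138909520-138909756 (minus) for Bnip3, chr12:73907617-73907866 (plus) for Hif1a, chr10:75860278-75860527 (minus) for Mif and chr17:46032378-46032627 (minus) for Vegfa.
Pgk1: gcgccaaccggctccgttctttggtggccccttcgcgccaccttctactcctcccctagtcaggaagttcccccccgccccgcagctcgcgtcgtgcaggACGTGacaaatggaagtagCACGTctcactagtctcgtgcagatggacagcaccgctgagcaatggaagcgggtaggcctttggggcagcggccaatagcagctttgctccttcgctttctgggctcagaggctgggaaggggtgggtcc
Ldha: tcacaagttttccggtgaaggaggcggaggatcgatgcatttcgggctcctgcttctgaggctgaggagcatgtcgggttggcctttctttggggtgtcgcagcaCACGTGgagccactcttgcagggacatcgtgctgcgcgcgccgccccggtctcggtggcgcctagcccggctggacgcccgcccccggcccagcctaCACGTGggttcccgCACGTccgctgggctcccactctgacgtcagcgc
Pgam1: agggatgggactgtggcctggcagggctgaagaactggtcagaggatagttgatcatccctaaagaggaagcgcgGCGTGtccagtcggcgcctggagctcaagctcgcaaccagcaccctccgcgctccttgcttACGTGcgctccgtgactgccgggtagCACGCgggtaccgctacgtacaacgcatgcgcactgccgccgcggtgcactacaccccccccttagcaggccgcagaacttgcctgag
Bnip3: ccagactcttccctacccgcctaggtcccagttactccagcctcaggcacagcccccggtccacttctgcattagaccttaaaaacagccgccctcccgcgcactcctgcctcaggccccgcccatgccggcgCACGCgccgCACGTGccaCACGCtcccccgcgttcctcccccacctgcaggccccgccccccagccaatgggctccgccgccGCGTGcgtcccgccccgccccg
Hif1a: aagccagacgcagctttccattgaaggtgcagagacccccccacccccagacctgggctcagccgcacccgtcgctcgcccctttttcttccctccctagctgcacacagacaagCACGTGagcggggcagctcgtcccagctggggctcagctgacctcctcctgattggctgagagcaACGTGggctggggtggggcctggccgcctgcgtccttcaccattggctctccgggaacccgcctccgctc
Mif: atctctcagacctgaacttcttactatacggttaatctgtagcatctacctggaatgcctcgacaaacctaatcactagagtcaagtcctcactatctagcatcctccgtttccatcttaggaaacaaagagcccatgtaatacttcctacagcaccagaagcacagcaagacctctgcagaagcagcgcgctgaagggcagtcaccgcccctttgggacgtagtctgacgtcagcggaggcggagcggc
Vegfa: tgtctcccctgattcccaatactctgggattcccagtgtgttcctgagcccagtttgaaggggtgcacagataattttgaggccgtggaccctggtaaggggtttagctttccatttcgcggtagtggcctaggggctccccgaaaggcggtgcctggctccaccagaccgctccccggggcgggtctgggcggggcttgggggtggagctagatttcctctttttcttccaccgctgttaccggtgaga
The window of Ldha held 5 matches, that of Bnip3 5, those of Pgam1 and Hif1a 3 each and that of Pgk1 2, where a palindromic CACGTG counts once on each strand. The windows of Mif and Vegfa held none, nor did those of Aldoa, Gpi1, Hk1, Pkm and Tpi1. In all, 25 of 32 members (78.1%) had at least 1 match, against 57.8% of 9096 promoters of genes tested here and 38.6% of all 27025. ACGTG, with or without GCGTG, was in 17 of 32 members (53.1%) and in 22.3% of the genes tested. GCGTG, with or without ACGTG, was in 16 of 32 members and in 46.4% of the genes tested. A match is a run of letters and not a measured binding site, and a window without one says nothing about more distant elements.

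Library totals ran from 3068863 to 15585423 counts (median 5596111). CPM (normalised read counts) are counts scaled to library size with TMM factors. They give a share of a library's reads and not molecules per cell. The most that an observed 0 allows at 95% confidence is 3 counts. Before TMM scaling these equal 0.192 to 0.978 CPM, depending on the library. With TMM scaling this limit is higher in libraries whose factor is under 1 and lower in the others. The TMM factors were 0.598 to 0.752 in the 8 LPS-treated libraries in low medium and 1.27 to 1.37 in the unstimulated libraries in normal medium. Within groups, libraries 1 and 3 and libraries 2 and 4 were mostly more alike than other pairs. Chi-square per degree of freedom was 4.03 to 37.3 (median 6.37, 16 pairs) against 9.73 to 81.5 (median 27.6, 32 pairs). Unstimulated wild-type cells held exceptions. In normal medium, libraries 1 and 3 gave 37.3 and libraries 3 and 4 gave 19.0. In low medium, libraries 2 and 4 gave 17.8 and libraries 3 and 4 gave 14.7. The labels do not say whether libraries 1 and 3, or 2 and 4, are repeats of 1 sample. The counts of members called, and many single calls, are therefore also given with each such pair summed. Library 1 of unstimulated wild-type cells in normal medium stood apart, with the highest level of its group in Gapdh, Hk2, Slc16a3, Mif and Ankrd37. Trem2 was at 3.65 to 132 CPM in knockout and at 194 to 517 CPM in wild-type libraries, with no overlap in any condition. All 10 macrophage markers were present in every group (summed level 5661 to 14143 CPM per library). The 10 neutrophil markers found summed to 71.0 to 434 CPM, dendritic cell markers to 0 to 21.4, lymphocyte markers to 0 to 2.48, stromal and endothelial markers to 0.746 to 22.2 and erythroid markers to 0 to 0.827 CPM. In such bulk libraries, fewer cells of a type and less RNA of a gene per cell cannot be told apart.

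The summed CPM of the glycolytic enzymes were several times lower in low than in normal medium in unstimulated cells. Summed over 15 enzyme genes from hexokinase to Ldha, unstimulated wild-type libraries in normal medium held 6934, 4864, 5081 and 4669 CPM, and those in low medium held 1770, 1598, 1791 and 1655 CPM. Unstimulated knockout libraries held 4614, 5644, 4622 and 5840 CPM in normal and 1644, 1254, 1659 and 1313 CPM in low medium. In both genotypes every library in low medium lay below every library in normal medium. With LPS in normal medium the sums were 6939, 5973, 6337 and 5662 CPM in wild-type and 6990, 6189, 6680 and 5805 CPM in knockout libraries. With LPS in low medium they were 2542, 3274, 2518 and 3515 CPM in wild-type and 1746, 1664, 1724 and 1995 CPM in knockout libraries. The genotypes overlapped in the other 3 conditions and lay apart only here, where the wild-type libraries were all higher. In every group but this knockout group, the sums of libraries 1 and 3 lay both above or both below those of libraries 2 and 4. In wild-type cells in low medium with LPS, libraries 1 and 3 were the lower ones. Tpi1, Pgk1 and Ldha gave the same order there, Hif1a the reverse and Bnip3 neither (values below).

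**Figure D1:**
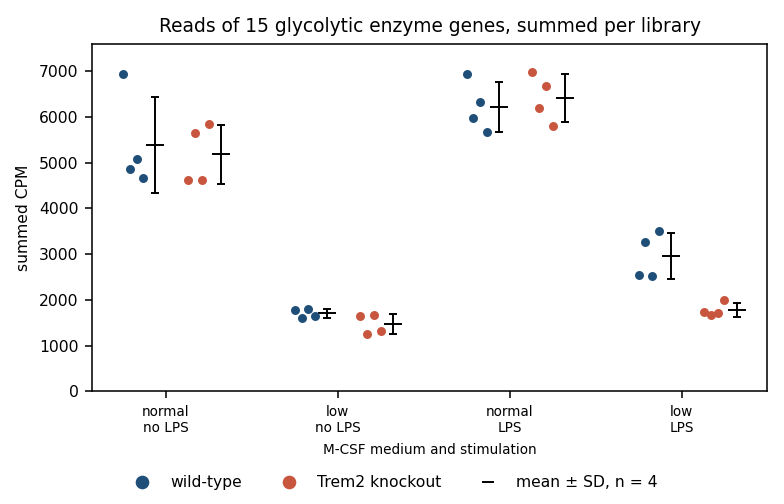
Summed TMM-scaled CPM of 15 glycolytic enzyme genes (vertical axis, linear from 0) in each of the 32 libraries, by medium and stimulation. Points are libraries (blue wild-type, red Trem2 knockout) and black marks are group mean ± SD (n = 4). The 4 wild-type libraries in low medium with LPS, at 2518 to 3515 CPM, lie above the 4 knockout libraries at 1664 to 1995 CPM.

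Low M-CSF went with lower levels along most of the pathway in unstimulated cells, from the glucose carriers to the lactate exporter. Vegfa, Hif1a and Pfkfb4 rose in both genotypes. Hk2 and Pfkfb3 rose too in knockout cells, the Hk2 call being lost with libraries summed in pairs (edgeR, adjusted p = 0.0778). In wild-type cells 22 of the 33 members fell and 3 rose, so that 75.8% passed the test beside 44.3% of all 11244 genes tested. The median log2 change was −1.25 over the members and 0.01 over all genes. In knockout cells 22 members fell and 5 rose, 81.8% beside 48.2% of all genes, where 26.6% of all genes rose, with medians of −1.25 and 0.10. Among LPS-treated wild-type cells, low medium gave 12 members lower and 8 higher than normal medium (60.6% beside 45.6% of all genes). In LPS-treated knockout cells 19 were lower and 7 higher in low medium (78.8% beside 59.2%). The medians under LPS were −0.17 in wild-type and −0.91 in knockout cells, against −0.10 and −0.14 over all genes. With libraries summed in pairs the members called were 21 and 22 without LPS and 18 and 21 with LPS, in wild-type and knockout cells. Marker genes moved with the medium too. In unstimulated cells macrophage markers summed to 5661 to 6670 CPM in normal and 9080 to 11037 CPM in low medium in wild-type libraries, and to 5978 to 7576 and 10192 to 13494 CPM in knockout libraries. Of the 10 macrophage markers, 5 were higher and 1 lower in low medium in wild-type cells, and 6 higher and 1 lower in knockout cells. Neutrophil markers went from 71.0 to 90.7 CPM up to 125 to 154 CPM in wild-type and from 76.7 to 86.4 CPM up to 196 to 259 CPM in knockout libraries, with 3 and 7 of the 9 tested higher and 0 lower. The part of these cells in the medium comparisons was not tested. A test here is edgeR's quasi-likelihood F test two-sided and adjusted by Benjamini-Hochberg across the whole table, and passing means an adjusted p under 0.05. Comparisons that use the same groups share libraries and are not independent of each other.

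With LPS, the glucose carriers, hexokinase 2 and the regulatory enzyme Pfkfb3 rose in all 4 settings, and Pgk1 and Ldha of the lower pathway rose in low medium. In normal medium 9 members rose and 4 fell in wild-type cells (39.4% of the 33 beside 36.1% of all genes), and 11 rose and 2 fell in knockout cells (39.4% beside 42.7%). Both shares lie near the background of all genes. In low medium 21 rose and 3 fell in wild-type cells (72.7% beside 60.7% of all genes, where 27.0% rose), and 15 rose and 5 fell in knockout cells (60.6% beside 67.5% of all genes, where 26.5% rose and 41.0% fell). The members' median log2 change in low medium was 0.90 in wild-type cells and 0.40 in knockout cells, against −0.18 and −0.36 over all genes. RLE size factors moved the all-gene median from −0.36 to −0.25 in knockout cells, and no member's call changed sign under any setting tried. In wild-type cells the LPS response itself differed between the media for 15 members, all more positive in low medium (45.5% beside 23.6% of all genes). In knockout cells it differed for 13, of which 9 were more positive and 4 more negative in low medium (39.4% beside 35.3%). With libraries summed in pairs these 2 counts were 9 and 6, and the members called with LPS were 10 and 13 in normal and 20 and 16 in low medium, in wild-type and knockout cells.

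**Figure D2:**
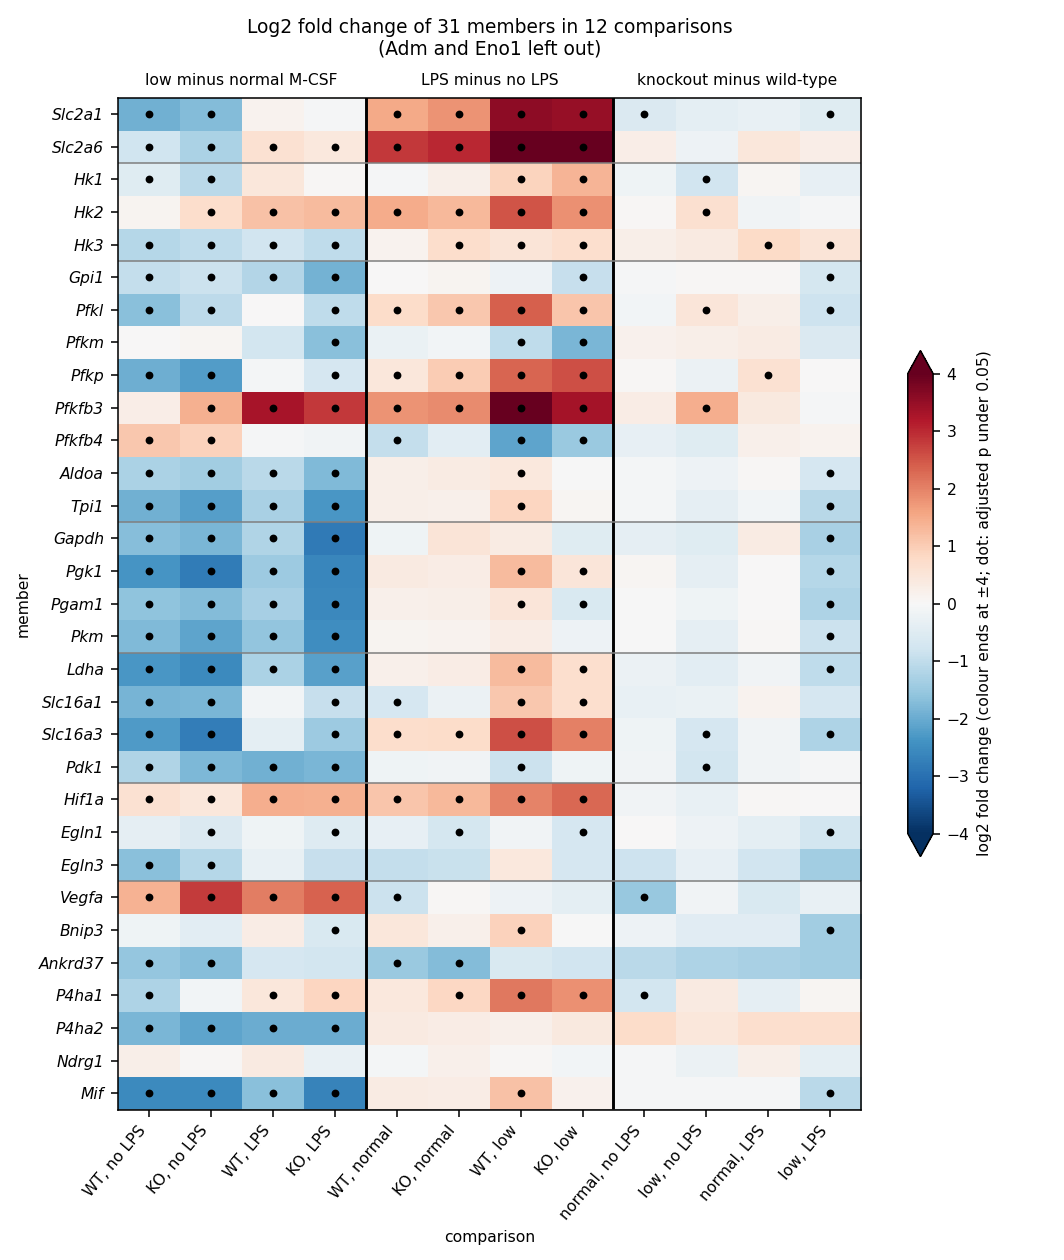
Log2 fold change (colour, red higher and blue lower, ends at ±4) of 31 members (rows, in order of role, grey lines between roles) in 12 comparisons (columns). Black dots mark an adjusted p under 0.05 with edgeR, and Adm and Eno1 are left out because of counts near 0. The left block shows the fall of most enzymes in low medium, with Pgk1 at −2.36 in wild-type and −2.79 in unstimulated knockout cells, and the column at the far right shows the lower levels in the knockout in low medium with LPS.

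The genotypes differed in the most members in low medium with LPS, where 15 members were lower and 1 higher in knockout cells. That is 48.5% of the members beside 19.1% of all genes tested (10.9% lower and 8.2% higher), and the median log2 difference was −0.66 over the members and −0.05 over all genes. The 15 lower members were Slc2a1, Gpi1, Pfkl, Aldoa, Tpi1, Gapdh, Pgk1, Pgam1, Eno1, Pkm, Ldha, Slc16a3, Egln1, Bnip3 and Mif, and the higher one was Hk3. The Eno1 call rested on 1 library and is uncertain (below). In the other 3 conditions few members passed. Unstimulated cells in normal medium gave 3 lower members (9.09% beside 1.86% of all genes, with 1.11% lower). LPS-treated cells in normal medium gave 2 higher members (6.06% beside 4.04% of all genes, with 1.98% higher and 2.05% lower). Unstimulated cells in low medium gave 3 higher and 3 lower (18.2% beside 16.7% of all genes, with 7.74% higher and 8.97% lower), a split that was 3 to 6 with DESeq2, 2 to 3 with RLE size factors and 1 to 5 when only the compared groups were fitted. With libraries summed in pairs, 8 members passed in low medium with LPS, 1 in each group of unstimulated cells and 0 in normal medium with LPS. With only the compared groups fitted, calls in low medium with LPS were lost for Slc2a1, Hk3, Gpi1 and Egln1 (adjusted p 0.0626 to 0.0780), and those of P4ha1 and Slc2a1 in normal medium (0.0614 and 0.0881) and of Hk2 and Pfkl in low medium without LPS (0.106 and 0.0883) were lost too. With no filter on low counts, Slc2a1 was lost in both of its conditions (0.0881 and 0.0542), as were Hk3 in low medium with LPS (0.0698), Pfkl (0.0881) and Pfkp (0.0700). Neutrophil markers summed to 282 to 434 CPM in knockout and 208 to 230 CPM in wild-type libraries in low medium with LPS, and to 196 to 259 against 125 to 154 CPM without LPS. Their part in the genotype differences was not tested.

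Tests of the differences between comparisons gave 4 further counts. The genotype difference under LPS was more negative in low than in normal medium for 11 members and more positive for 0 (33.3% beside 5.49% of all genes, with 3.29% more negative). The LPS response in low medium was less positive or more negative in knockout than in wild-type cells for 8 members and the reverse for 0 (24.2% beside 16.0% of all genes, with 8.49% more negative and 7.52% more positive). In unstimulated cells the genotype difference was more positive in low than in normal medium for 3 members, Pfkfb3, P4ha1 and Vegfa (9.09% beside 4.62% of all genes, with 1.41% more positive and 3.21% more negative). In normal medium the LPS response differed between the genotypes for 0 members with edgeR and with DESeq2 and for 0.534% of all genes. There 4 members had an unadjusted p under 0.05, beside 1179 of 11244 genes. Of the 11, Bnip3 was lost in each of 16 fits that left out 1 library, Aldoa in 12 and Ldha in 6. With only the compared groups fitted, Aldoa left the 11 (adjusted p 0.0865), Bnip3, Gpi1, Pgk1 and Tpi1 left the 8 (0.0702 to 0.111) and Pfkfb3 left the 3 (0.0591). Aldoa and Bnip3 left the 11 with RLE size factors (0.0736 and 0.0672) and with no filter (0.112 and 0.0652). With libraries summed in pairs the 4 counts were 0, 1, 0 and 0. Without wild-type library 4 in low medium with LPS the first count was 6 and the second 4. Leaving out knockout library 1 of that condition gave 7 and 5, and 5 was also the second count without knockout library 3 of that condition, wild-type library 2 of that condition, or unstimulated knockout library 1 or 3 in low medium.

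The glucose carriers rose with LPS in every setting and fell with low medium in unstimulated cells. Slc2a1, which encodes the main glucose carrier GLUT1 (Entrez 20525, chromosome 4 at 119108745 to 119137330), stood at 93.8, 70.4, 68.5 and 74.8 CPM in unstimulated wild-type libraries in normal medium and at 22.1, 18.8, 17.8 and 22.7 CPM in low medium. LPS-treated wild-type libraries held 218, 230, 207 and 221 CPM in normal and 222, 261, 218 and 274 CPM in low medium. The unstimulated groups of the 2 media lay far apart, and the LPS-treated ones overlapped. Slc2a1 fell by 1.92 ± 0.16 (SE) on the log2 scale with low medium (adjusted p = 7.22e-12) and did not pass between the media under LPS (log2 0.15 ± 0.15, adjusted p = 0.426). Its LPS response in wild-type cells was 1.51 ± 0.16 in normal and 3.58 ± 0.17 in low medium, a difference of 2.07 ± 0.22 (adjusted p = 1.52e-08). Knockout libraries held 54.5, 48.7, 53.9 and 47.7 CPM in normal and 19.3, 12.9, 16.1 and 14.3 CPM in low medium without LPS. With LPS they held 169, 205, 135 and 206 CPM in normal and 177, 183, 143 and 187 CPM in low medium. Knockout libraries were below all wild-type libraries in normal medium without LPS and in both media with LPS. Slc2a1 was lower by 0.59 ± 0.16 in normal medium without LPS (adjusted p = 0.0356) and by 0.50 ± 0.16 in low medium with LPS (adjusted p = 0.0208). The first of these calls held in 2 of the 8 fits that left out 1 library, those without wild-type library 2 or 3, and was lost in the other 6 (adjusted p 0.0574 to 0.150). The second was lost without wild-type library 2 or 4 (0.0575 and 0.0689) or knockout library 3 (0.0840), and both were lost with libraries summed in pairs (0.906 and 0.271). Slc2a6, a glucose carrier of inner membranes that LPS is known to raise, rose from 24.2 ± 3.87 to 172 ± 27.5 CPM in wild-type cells of the normal-medium groups and from 13.9 ± 2.89 to 262 ± 56.6 CPM in low medium. In knockout cells it rose from 28.9 ± 6.99 to 235 ± 31.1 CPM and from 12.2 ± 2.27 to 318 ± 30.5 CPM. The fall of Slc2a6 with low medium in unstimulated wild-type cells was −0.79 ± 0.19 (adjusted p = 0.00114), lost with pairs summed (0.0525). Slc2a6 passed between the genotypes in none of the 4 conditions (adjusted p = 0.181 to 0.719, edgeR).

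Among the hexokinases, which trap glucose in the cell, Hk2 rose with LPS in both media, all 3 rose with LPS in low medium in both genotypes, and Hk1 and Hk3 fell with low medium in unstimulated cells. Hk2, the inducible form bound to mitochondria (Entrez 15277, chromosome 6 at 82725025 to 82774454), stood at 63.6, 42.5, 40.2 and 40.7 CPM in unstimulated wild-type libraries in normal medium and at 36.6, 73.8, 39.4 and 53.0 CPM in low medium. LPS took it to 129, 145, 115 and 136 CPM in normal and 253, 331, 237 and 350 CPM in low medium. The highest levels were in low medium with LPS, and the 2 unstimulated groups overlapped. Knockout libraries gave 47.0, 56.0, 47.1 and 44.3 CPM in normal and 87.7, 83.5, 70.9 and 71.9 CPM in low medium without LPS. With LPS they gave 131, 114, 111 and 116 CPM in normal and 334, 224, 303 and 265 CPM in low medium. In low medium Hk2 rose by 2.53 ± 0.20 with LPS in wild-type and by 1.84 ± 0.19 in knockout cells (adjusted p = 6.61e-14 and 9.85e-11), and these responses did not differ past the threshold (−0.68 ± 0.26, adjusted p = 0.0684). Without LPS in low medium, knockout cells had more Hk2 by 0.63 ± 0.19 (adjusted p = 0.0164), although the libraries overlapped. That call was lost without wild-type library 1 or 3 or knockout library 1 (adjusted p = 0.0835, 0.0691 and 0.0518) and with libraries summed in pairs (0.275). Hk1, the constitutive form, was lower in knockout cells in that condition, at 43.2, 38.2, 32.9 and 33 CPM against 69.7, 67.7, 59.3 and 55.1 CPM. The difference was −0.78 ± 0.20 (adjusted p = 0.0043), lost with pairs summed (0.12). Hk3, a form typical of white blood cells, was higher in knockout cells under LPS, at 161 ± 19.0 against 93.9 ± 14 CPM in normal and 78.7 ± 3.45 against 55.2 ± 5.14 CPM in low medium. The log2 differences were 0.78 ± 0.16 and 0.51 ± 0.17 (adjusted p = 0.00227 and 0.027). The latter call was lost without wild-type library 2 or 3 or knockout library 1 or 3 (0.0558 to 0.0711), and both were lost with pairs summed (0.203 and 0.263). The fall of Hk1 in wild-type cells (−0.48 ± 0.19, adjusted p = 0.0392) was lost in 5 of 8 fits that left out 1 library: wild-type libraries 1, 3 and 4 in low and 2 and 4 in normal medium (0.0542 to 0.255). It was also lost with RLE size factors (0.0569), no filter (0.0585) and pairs summed (0.218). With LPS in low medium Hk1 rose by 0.90 ± 0.20 in wild-type cells and by 1.36 ± 0.20 in knockout cells. Hk3 rose by 0.52 ± 0.17 and by 0.68 ± 0.16, the former lost with pairs summed (0.0753).

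Of the phosphofructokinases, which commit sugar to glycolysis, Pfkl and Pfkp fell with low medium in unstimulated cells of both genotypes and rose with LPS, and the rise of Pfkl in low medium was smaller in knockout cells. Among LPS-treated wild-type cells neither passed between the media (log2 0.02 ± 0.16 and −0.08 ± 0.18, adjusted p = 0.934 and 0.733). Pfkl, the liver-type subunit (Entrez 18641, chromosome 10 at 77986947 to 78009807), stood at 13, 14.9, 15.2 and 15.8 CPM in unstimulated wild-type libraries in low medium and at 66.9, 103, 65.4 and 76.2 CPM with LPS. Knockout libraries gave 22.3, 19.1, 21.3 and 19.9 CPM without and 36.7, 52.6, 44.0 and 43.7 CPM with LPS. Knockout libraries were all above the wild-type ones without LPS and all below them with LPS. The response was 2.41 ± 0.17 in wild-type cells and 1.10 ± 0.16 in knockout cells, and they differed by −1.30 ± 0.23 (adjusted p = 0.000233), a call lost with libraries summed in pairs (0.085). The genotype difference was 0.49 ± 0.16 without LPS (adjusted p = 0.036) and −0.81 ± 0.16 with LPS (adjusted p = 0.000543). The former was lost in 6 of 8 fits that left out 1 library (0.0509 to 0.111), held without wild-type library 4 or knockout library 2, and was lost with RLE size factors (0.0545). With pairs summed both missed the threshold (0.326 and 0.0818). Normal medium gave 46.4 ± 5.08 and 42.6 ± 6.4 CPM without and 76.8 ± 7.58 and 90.1 ± 10.7 CPM with LPS in wild-type and knockout cells. Pfkp, the platelet-type subunit, rose with LPS in low medium from 20.3 ± 1.24 to 101 ± 11.2 CPM in wild-type and from 17.4 ± 4.84 to 103 ± 25.0 CPM in knockout cells. In normal medium with LPS it was higher in knockout cells (164 ± 30.9 against 107 ± 10.7 CPM, log2 0.61 ± 0.18, adjusted p = 0.0446), a call lost in each of the 8 fits that left out 1 library (0.0534 to 0.204) and with pairs summed (0.534). In wild-type cells in normal medium its LPS response (0.45 ± 0.18, adjusted p = 0.0462) was lost in 6 of 8 such fits (0.0670 to 0.195; it held without LPS-treated library 4 or unstimulated library 1), with RLE size factors (0.0916), no filter (0.0821), DESeq2 (0.0755) and pairs summed (0.243). Pfkm, the muscle-type subunit, was at 8.21 ± 2.14 CPM or less in every group mean and fell with LPS in low medium by 1.03 ± 0.39 in wild-type and by 1.83 ± 0.39 in knockout cells. The wild-type call was lost without LPS-treated library 2 or 3 (adjusted p = 0.0790 and 0.0599) and with pairs summed (0.0510).

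Pfkfb3 and Pfkfb4 make and break fructose 2,6-bisphosphate, the activator of phosphofructokinase, and they moved in opposite directions with LPS in low medium. Pfkfb3, the strongly kinase-active form (Entrez 170768, chromosome 2 at 11471430 to 11554071), stood at 8, 7.17, 7.27 and 4.36 CPM in unstimulated wild-type libraries in normal medium and at 7.15, 5.76, 7.01 and 12.9 CPM in low medium. With LPS it stood at 24.3, 25.6, 26.2 and 18.6 CPM in normal and at 193, 272, 217 and 245 CPM in low medium. Of the wild-type groups, the one with LPS in low medium was far above the others, and the 2 unstimulated groups overlapped. Knockout libraries gave 8.07, 8.96, 9.53 and 6.98 CPM in normal and 26.4, 21.1, 22.1 and 20.3 CPM in low medium without LPS, and 31.9, 28.7, 31.5 and 33.5 CPM in normal and 195, 214, 246 and 248 CPM in low medium with LPS. Without LPS in low medium the knockout libraries were all above the wild-type ones, and with LPS they overlapped. The genotype difference there was 1.46 ± 0.20 without LPS (adjusted p = 6.5e-07, and 0.000686 with libraries summed in pairs) and −0.04 ± 0.18 with LPS (adjusted p = 0.913). The LPS response in low medium was 4.83 ± 0.22 in wild-type cells and 3.33 ± 0.20 in knockout cells, a difference of −1.50 ± 0.27 (adjusted p = 0.00023, and 0.0452 with pairs summed). The difference between the LPS responses in low and normal medium was 3.03 ± 0.28 in wild-type cells and 1.43 ± 0.27 in knockout cells (adjusted p = 4.74e-10 and 9.27e-05). Pfkfb4 was at 4.44 ± 1.82 to 19.0 ± 8.13 CPM. It rose with low medium in unstimulated cells by 1.09 ± 0.30 in wild-type and by 0.93 ± 0.30 in knockout cells, both lost with pairs summed (0.0508 and 0.1), and with LPS in low medium it fell by 2.10 ± 0.36 and by 1.48 ± 0.35.

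The other upper enzymes, Gpi1, Aldoa and Tpi1, fell with low medium in both genotypes and with or without LPS. Aldoa, the main aldolase outside the liver, fell by 1.25 ± 0.15 in wild-type and by 1.39 ± 0.15 in unstimulated knockout cells. Tpi1, triose phosphate isomerase, fell by 1.91 ± 0.18 and by 2.20 ± 0.19, and Gpi1, glucose phosphate isomerase, fell by 0.96 ± 0.17 and by 0.87 ± 0.17. In low medium with LPS, Tpi1 was at 139, 212, 145 and 223 CPM in wild-type and at 84.0, 65.0, 76.8 and 107 CPM in knockout libraries. No knockout library reached the lowest wild-type library. Tpi1 was lower in knockout cells by 1.12 ± 0.19 (adjusted p = 4.49e-05, and 0.0296 with libraries summed in pairs). Aldoa was lower by 0.66 ± 0.15 (adjusted p = 0.0024) and Gpi1 by 0.69 ± 0.17 (adjusted p = 0.0047), with overlapping libraries, and both were lost with pairs summed (0.147 and 0.170). Tpi1 rose with LPS in low medium in wild-type cells by 0.85 ± 0.18, and knockout cells gave 0.08 ± 0.18 (adjusted p = 0.696). These responses differed by −0.76 ± 0.26 (adjusted p = 0.0386), a call lost in 9 of 16 fits that left out 1 library (0.0582 to 0.0998). It was also lost with RLE size factors (0.0764), DESeq2 (0.0534) and pairs summed (0.293). Gpi1 fell with LPS in low medium in knockout cells by 0.93 ± 0.17, while wild-type cells gave −0.20 ± 0.17 (adjusted p = 0.328). The difference of −0.73 ± 0.24 (adjusted p = 0.0348) was lost in 8 of 16 such fits (0.0587 to 0.107). It was also lost with RLE size factors (0.0684), no filter (0.0526) and pairs summed (0.319).

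The enzymes of the lower, energy-yielding steps gave no LPS response past the threshold in normal medium and a genotype difference in low medium with LPS. Pgk1, phosphoglycerate kinase, which makes ATP (Entrez 18655, chromosome X at 106187100 to 106203699, upstream sequence above), stood at 1037, 814, 805 and 742 CPM in unstimulated wild-type libraries in normal medium and at 196, 140, 170 and 155 CPM in low medium. With LPS it stood at 1253, 1088, 1128 and 934 CPM in normal and at 341, 480, 289 and 498 CPM in low medium. The LPS-treated libraries in low medium were above the unstimulated ones and below every library in normal medium. Knockout libraries gave 818, 1013, 762 and 1002 CPM in normal and 146, 108, 148 and 118 CPM in low medium without LPS, and 1338, 1046, 1208 and 835 CPM in normal and 149, 184, 180 and 209 CPM in low medium with LPS. The genotypes overlapped in 3 conditions and lay apart in low medium with LPS. There Pgk1 was lower in knockout cells by 1.16 ± 0.18 (adjusted p = 1.93e-05, and 0.0267 with libraries summed in pairs). Its LPS response in low medium was 1.28 ± 0.18 in wild-type cells and 0.47 ± 0.18 in knockout cells, a difference of −0.81 ± 0.25 (adjusted p = 0.0257). This difference was lost in 6 of 16 fits that left out 1 library (0.0571 to 0.0715) and with pairs summed (0.286). The knockout response alone was lost without LPS-treated library 4 or unstimulated library 2 or 4 (0.0733, 0.105 and 0.0787), with no filter (0.0566) and with pairs summed (0.140).

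Pgam1, phosphoglycerate mutase (Entrez 18648, chromosome 19 at 41911871 to 41918665), differed between the genotypes by the LPS response as well. In low medium it stood at 243, 161, 225 and 169 CPM without and 256, 287, 239 and 332 CPM with LPS in wild-type libraries, and at 216, 151, 208 and 141 CPM without and 116, 114, 111 and 130 CPM with LPS in knockout libraries. With LPS, wild-type libraries were higher than most unstimulated ones and knockout libraries were lower than all of theirs. Pgam1 rose by 0.48 ± 0.17 in wild-type cells (adjusted p = 0.0154) and fell by 0.60 ± 0.17 in knockout cells (adjusted p = 0.00264), and the responses differed by −1.08 ± 0.24 (adjusted p = 0.00266). The rise was lost without LPS-treated library 4 or unstimulated library 2 or 4 (0.0762, 0.0680 and 0.0908), and all 3 calls were lost with libraries summed in pairs (0.137, 0.0866 and 0.166). The genotype difference under LPS, −1.24 ± 0.18 (adjusted p = 4.45e-06), held with pairs summed (0.0161). Gapdh, which feeds NADH production, was at 125, 159, 108 and 190 CPM in wild-type and 68.2, 48.0, 51.5 and 70.4 CPM in knockout libraries in that condition. The groups did not overlap, and Gapdh was lower in knockout cells by 1.29 ± 0.25 (adjusted p = 0.000295, and 0.0175 with pairs summed). Under LPS this difference was more negative in low than in normal medium by 1.61 ± 0.34 (adjusted p = 0.0046), lost with pairs summed (0.149). Pkm, pyruvate kinase, was lower in knockout cells by 0.86 ± 0.16 (adjusted p = 0.000294), at 201 ± 33.6 against 364 ± 63.8 CPM, and missed the threshold with pairs summed (0.0759). Pkm, Pgam1 and Gapdh fell with low medium in unstimulated wild-type cells by 1.77 ± 0.17, by 1.61 ± 0.17 and by 1.72 ± 0.24. Gapdh, Pgk1, Ldha and other members have processed pseudogenes, so their counts depend on how reads with several matches were counted. Eno1, enolase, is uncertain for this reason. It held 0 to 170 counts per library, while its near-identical copy Eno1b, named after its values were seen, held 6 to 472. The Eno1 call in low medium with LPS (adjusted p = 0.0159) rested on wild-type library 1 with 170 counts. It was lost without that library (0.159), with DESeq2 (0.0786) and with pairs summed (0.113). In that condition Eno1b held 45 counts over the wild-type and 54 over the knockout libraries, before scaling to library size.

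The genes of lactate formation and export fell with low medium in unstimulated cells, and Ldha and Slc16a3 were lower in the knockout in low medium with LPS. Ldha, lactate dehydrogenase A (Entrez 16828, chromosome 7 at 46842274 to 46855627, upstream sequence above), stood at 995, 587, 657 and 544 CPM in unstimulated wild-type libraries in normal medium and at 140, 125, 144 and 140 CPM in low medium. With LPS in low medium wild-type libraries held 264, 375, 288 and 402 CPM. Knockout libraries held 550, 623, 531 and 682 CPM in normal and 129, 88.1, 103 and 90.6 CPM in low medium without LPS, and 138, 156, 173 and 184 CPM in low medium with LPS. Both genotypes rose with LPS in low medium, and every knockout library stayed below every wild-type one. The responses were 1.27 ± 0.17 and 0.67 ± 0.17 and did not differ past the threshold (−0.61 ± 0.24, adjusted p = 0.0813). With LPS in low medium, Ldha was lower in knockout cells by 1.03 ± 0.17 (adjusted p = 5.46e-05, and 0.0379 with libraries summed in pairs). Slc16a3, the lactate exporter MCT4 (Entrez 80879, chromosome 11 at 120948484 to 120959000), stood at 16.8, 14, 17.5 and 15.9 CPM in unstimulated wild-type libraries in low medium and at 85.1, 100, 77.6 and 124 CPM with LPS. Knockout libraries gave 12.8, 9.88, 11.4 and 7.17 CPM without and 35.5, 42.7, 40.7 and 47.1 CPM with LPS. All knockout libraries were below all wild-type ones in both conditions. The difference was −0.66 ± 0.18 without LPS (adjusted p = 0.00899) and −1.22 ± 0.18 with LPS (adjusted p = 6.03e-06). The former was lost without knockout library 4 (0.0605) and with pairs summed (0.191), and the latter held with pairs summed (0.0145). In normal medium the genotypes did not pass for Slc16a3, at 77.7 ± 9.49 and 68.8 ± 8.46 CPM without and 126 ± 20.3 and 113 ± 12.4 CPM with LPS. Slc16a1, the lactate carrier MCT1, fell with low medium without LPS by 1.85 ± 0.27 in wild-type and by 1.82 ± 0.26 in knockout cells and did not pass between the genotypes in any condition. Among LPS-treated wild-type cells neither Slc16a1 nor Slc16a3 passed between the media (log2 −0.10 ± 0.28 and −0.39 ± 0.17, adjusted p = 0.792 and 0.0582). Pdk1, a kinase that inhibits pyruvate dehydrogenase, fell with low medium in both genotypes with and without LPS, by 1.20 ± 0.21 to 1.91 ± 0.24. In low medium without LPS Pdk1 was lower in knockout cells by 0.74 ± 0.22 (12.5 ± 0.674 against 21.0 ± 5.05 CPM, adjusted p = 0.0151). That call was lost without wild-type library 1 or 4 (0.0599 and 0.0673) and with pairs summed (0.150).

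**Figure D3:**
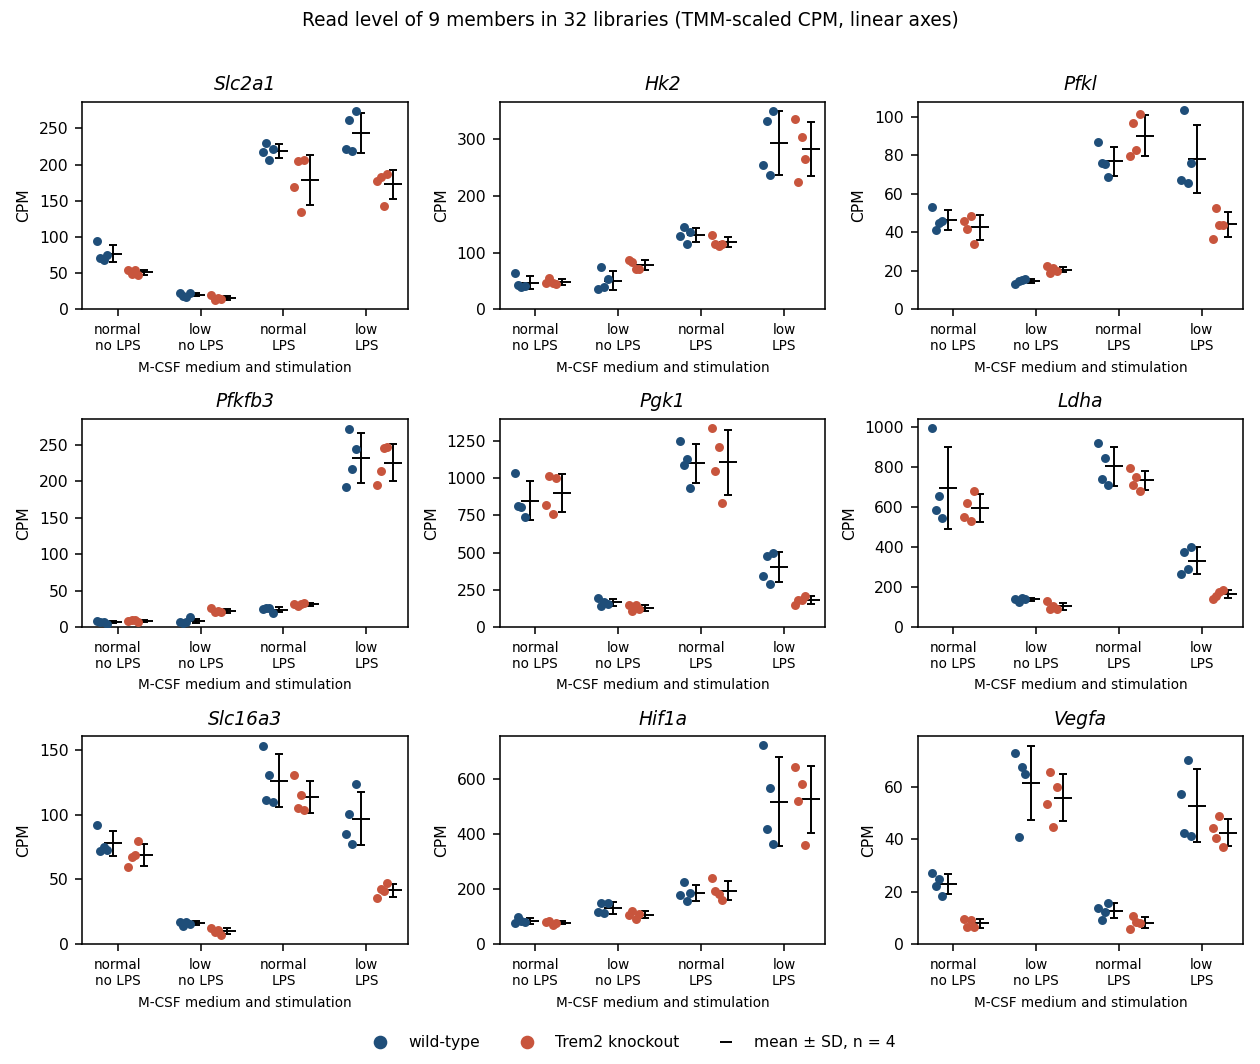
TMM-scaled CPM (vertical axes, linear from 0) of 9 members in 32 libraries, by medium and stimulation. Points are libraries (blue wild-type, red Trem2 knockout) and black marks are group mean ± SD (n = 4). Pgk1 and Ldha are several times lower in low medium, Pfkfb3 is high in low medium with LPS at 193 to 272 CPM, and Slc16a3 of the knockout lies at 35.5 to 47.1 CPM below wild-type libraries at 77.6 to 124 CPM in that condition.

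Hif1a rose with both low medium and LPS, in the direction opposite to the glycolytic enzymes for the medium, and did not pass between the genotypes. Hif1a (Entrez 15251, chromosome 12 at 73901324 to 73947554, upstream sequence above) stood at 76.7, 101, 83.8 and 82.4 CPM in unstimulated wild-type libraries in normal medium and at 116, 151, 113 and 150 CPM in low medium. With LPS it stood at 178, 227, 159 and 185 CPM in normal and at 722, 417, 568 and 365 CPM in low medium. All 4 groups were apart from each other in that order. Hif1a rose by 0.62 ± 0.19 with low medium (adjusted p = 0.00653, and 0.129 with libraries summed in pairs), by 1.12 ± 0.19 with LPS in normal medium (adjusted p = 6.32e-06) and by 1.97 ± 0.19 with LPS in low medium (adjusted p = 2.97e-11). Knockout cells had 78.4 ± 5.85 and 108 ± 11.5 CPM without and 195 ± 33.9 and 526 ± 121 CPM with LPS in normal and low medium. Their rise with low medium (0.46 ± 0.19, adjusted p = 0.0401) was lost without unstimulated library 2 in low or 3 or 4 in normal medium (0.0780, 0.0723 and 0.0556) and with pairs summed (0.244). The adjusted p of the 4 genotype differences in Hif1a was 0.294 to 0.951 (edgeR), with log2 differences between −0.29 ± 0.19 and 0.05 ± 0.19. The LPS response was larger in low than in normal medium by 0.85 ± 0.26 in wild-type (adjusted p = 0.0172) and by 0.98 ± 0.26 in knockout cells (adjusted p = 0.0041). The wild-type value was lost without LPS-treated library 1 in low medium (0.0773), and both were lost with pairs summed (0.207 and 0.0749). Egln1, the main oxygen-sensing prolyl hydroxylase, was at 39.8, 47.9, 31.9 and 53.0 CPM in wild-type and at 20.4, 24.7, 36.1 and 21.8 CPM in knockout libraries in low medium with LPS. The groups overlapped in 1 knockout library. Egln1 was lower in knockout cells by 0.73 ± 0.20 (adjusted p = 0.0105), lost without wild-type library 4 or knockout library 1 (0.0514 and 0.0530) and with pairs summed (0.146). Egln3, a hydroxylase that HIF itself induces, had group means of 1.42 ± 0.765 to 8.62 ± 1.76 CPM, fell with low medium in unstimulated wild-type cells by 1.68 ± 0.43 and did not pass between the genotypes.

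The hypoxia-inducible genes outside glycolysis did not move as 1 group. Vegfa, the vascular growth factor (Entrez 22339, chromosome 17 at 46016993 to 46032377, upstream sequence above), rose with low medium. It stood at 27.1, 22.2, 24.9 and 18.3 CPM in unstimulated wild-type libraries in normal medium and at 72.6, 40.7, 67.6 and 64.8 CPM in low medium, and at 9.52, 6.53, 9.20 and 6.67 CPM and 53.2, 65.4, 44.8 and 59.7 CPM in knockout libraries. The knockout libraries were all lower in normal medium and overlapped the wild-type ones in low medium. Vegfa was lower in knockout cells by 1.52 ± 0.22 in normal medium (adjusted p = 1.3e-05, and 0.0183 with libraries summed in pairs), and low medium gave −0.14 ± 0.20 (adjusted p = 0.682). These 2 differences differed by 1.38 ± 0.29 (adjusted p = 0.00218), a call lost with pairs summed (0.150). With LPS in normal medium Vegfa fell in wild-type cells by 0.87 ± 0.21 (adjusted p = 0.00109), to 12.8 ± 2.78 CPM. P4ha1, a collagen prolyl hydroxylase (Entrez 18451, chromosome 10 at 59323197 to 59373304), fell with low medium in unstimulated wild-type cells by 1.23 ± 0.19, from 192, 198, 157 and 184 CPM to 76.2, 81.1, 75.8 and 77.9 CPM. Knockout libraries held 124, 83.9, 131 and 95.6 CPM in normal and 88.9, 115, 96.4 and 101 CPM in low medium, 2 groups that overlapped. The medium effect differed between the genotypes by 1.12 ± 0.26 (adjusted p = 0.00718), lost with pairs summed (0.420). P4ha1 was lower in knockout cells in normal medium by 0.75 ± 0.19 (adjusted p = 0.0214), lost without wild-type library 2 or knockout library 2 or 4 (0.0644, 0.122 and 0.0831) and with pairs summed (0.760). LPS in low medium raised P4ha1 by 2.11 ± 0.19 in wild-type and by 1.81 ± 0.19 in knockout cells.

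Bnip3 and Mif differed between the genotypes in low medium with LPS. Bnip3, a mitophagy receptor (Entrez 12176, chromosome 7 at 138890836 to 138909506, upstream sequence above), stood at 27.6, 58.3, 25.0 and 52.7 CPM in unstimulated wild-type libraries in low medium and at 79.5, 67.4, 72.7 and 91.1 CPM with LPS. Knockout libraries held 31.6, 27.2, 33.4 and 27.9 CPM without and 32.7, 33, 23.3 and 30.6 CPM with LPS. Wild-type libraries were higher with LPS than without, and the knockout groups overlapped. The unstimulated wild-type libraries fell into 1 and 3 at the low end and 2 and 4 at the high end. The LPS response was 0.93 ± 0.19 in wild-type (adjusted p = 9.86e-05) and −0.01 ± 0.20 in knockout cells (adjusted p = 0.977), a difference of −0.93 ± 0.28 (adjusted p = 0.0205). That difference was lost without LPS-treated wild-type library 4 or knockout library 3 or unstimulated wild-type library 1 (0.0502, 0.0538 and 0.0502), and with libraries summed in pairs (0.237). With LPS Bnip3 was lower in knockout cells by 1.38 ± 0.20 (adjusted p = 8.88e-06, and 0.0128 with pairs summed). Mif, a cytokine that is also a HIF target (Entrez 17319, chromosome 10 at 75859353 to 75860277, upstream sequence above), fell with low medium without LPS by 2.53 ± 0.19 in wild-type and by 2.55 ± 0.19 in knockout cells. With LPS in low medium it was at 155, 186, 143 and 240 CPM in wild-type and at 64.2, 99, 71.4 and 112 CPM in knockout libraries. The groups lay apart, with knockout libraries near their unstimulated mean of 76.7 ± 11.4 CPM. Mif was lower in knockout cells by 1.06 ± 0.19 (adjusted p = 9.78e-05, and 0.0431 with pairs summed). Its LPS response, 1.19 ± 0.18 in wild-type and 0.17 ± 0.18 in knockout cells, differed by −1.01 ± 0.26 (adjusted p = 0.00786), lost with pairs summed (0.197).

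**Figure D4:**
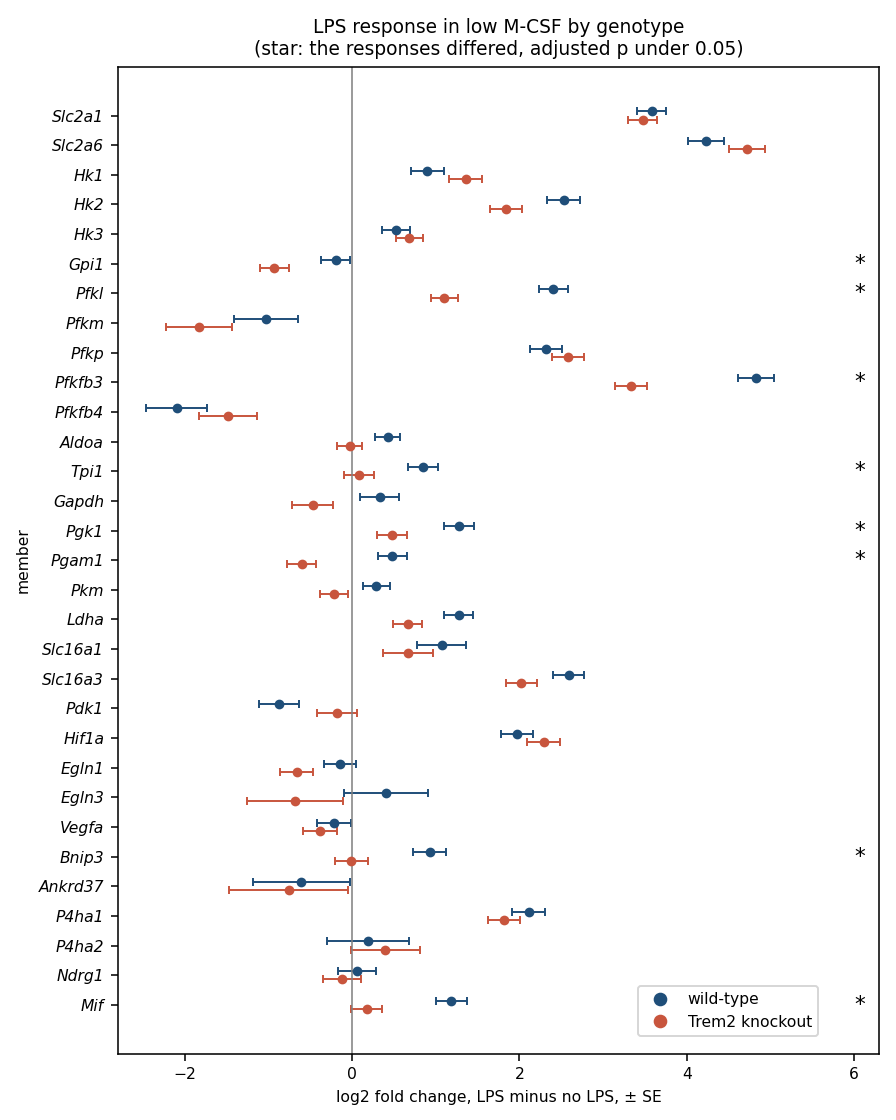
Log2 fold change with LPS in low medium (horizontal axis) ± SE for 31 members (rows) in wild-type (blue) and Trem2 knockout cells (red). Stars mark the 8 members whose response differed between the genotypes with an adjusted p under 0.05 (edgeR), among them Pfkfb3 at 4.83 in wild-type and 3.33 in knockout cells. Adm and Eno1 are left out because of counts near 0.

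The remaining 4 members were low or still. Adm, the peptide adrenomedullin, had 0 counts in all 4 unstimulated wild-type libraries in low medium and stood at 12.9, 13.2, 8.89 and 6.85 CPM with LPS, which is at least 99.4-fold higher when the unstimulated group is set at 3 counts in all (0.105 CPM). Knockout libraries in low medium held at most 0.0727 CPM without LPS and 5.56, 11, 8.96 and 8.25 CPM with LPS, overlapping the wild-type ones. In normal medium with LPS the means were 1 ± 0.818 and 1.52 ± 0.340 CPM. Ankrd37, a small ankyrin-repeat protein induced by HIF, fell with low medium by 1.55 ± 0.47 in unstimulated wild-type and by 1.71 ± 0.50 in knockout cells, and it fell with LPS in normal medium by 1.49 ± 0.47 and by 1.73 ± 0.54. In unstimulated cells its knockout libraries lay below the wild-type ones in both media, at 5.52 ± 1.53 against 11.7 ± 2.20 CPM in normal and 1.74 ± 0.575 against 3.97 ± 0.884 CPM in low medium, without passing (adjusted p = 0.313 and 0.0901). P4ha2, another collagen prolyl hydroxylase, fell with low medium in both genotypes by 1.82 ± 0.38 to 2.11 ± 0.35, with or without LPS. Ndrg1, a stress-responsive gene and a usual marker of hypoxia, had group means of 15.7 ± 5.35 to 20.7 ± 5.05 CPM and passed in none of the 18 comparisons (smallest adjusted p = 0.194 with edgeR).

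Other genes of the pathways, from 3 lists that hold no member, moved in both directions. With low medium in unstimulated wild-type cells, the share of each list called lay near the 44.3% of all genes. Of 22 tested genes of glycolysis and pyruvate use, 6 fell and 3 rose there. Ldhb, the lactate dehydrogenase subunit that favours pyruvate, rose from 2.55 ± 0.924 to 12.9 ± 1.85 CPM (log2 2.33 ± 0.33), and Adpgk, an ADP-dependent glucokinase, fell by 1.39 ± 0.25. Of 29 other hypoxia-inducible genes 7 fell and 6 rose, among them Fam162a (fell by 2.25 ± 0.20) and the nuclear receptor Rora (rose by 2.53 ± 0.26). Of 11 other HIF regulators 3 rose and 2 fell, among them the coactivators Crebbp and Ep300, which rose by 1.30 ± 0.25 and 0.94 ± 0.20. The ubiquitin ligase Siah2, which acts on prolyl hydroxylases, fell by 1.44 ± 0.24. In unstimulated knockout cells, 10 of the 22 glycolysis and pyruvate genes fell with low medium and 6 rose, beside 21.7% and 26.6% of all genes. Their median log2 change was −0.52, against 0.10 over all genes. The other hypoxia-inducible genes gave 7 lower and 8 higher of 29 there, and the HIF regulators 2 lower and 4 higher of 11. With LPS in low medium the 22 glycolysis and pyruvate genes gave 3 higher and 7 lower in wild-type and 0 higher and 12 lower in knockout cells, where 33.6% and 41.0% of all genes were lower. Pfkfb2 and the intracellular glucose carrier Slc2a8 fell by 3.49 ± 0.32 and by 1.95 ± 0.30 in wild-type cells. Siah2 rose by 2.79 ± 0.25 and Cited2, which competes with HIF-1α for coactivators, by 2.43 ± 0.14. Hif1an, which encodes the asparaginyl hydroxylase of HIF-1α, fell by 0.75 ± 0.29 (adjusted p = 0.0256), lost without LPS-treated library 3 or 4 (0.0689 and 0.133), with only the compared groups fitted (0.0886) and with libraries summed in pairs (0.0921). Among hypoxia-inducible genes Ak4, an adenylate kinase of mitochondria, rose from 1.03 ± 0.289 to 41.4 ± 5.61 CPM.

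Between the genotypes in low medium with LPS, 1 of the 22 other glycolysis and pyruvate genes was lower and 0 higher, 5 of 29 hypoxia-inducible genes were lower and 2 higher, and of 11 HIF regulators 1 was lower and 1 higher, where 19.1% of all genes were called. Pdhb, a subunit of pyruvate dehydrogenase, was lower by 0.96 ± 0.19 (21.4 ± 5.36 against 40.9 ± 9.58 CPM, adjusted p = 0.000399). Ak4 was lower by 1.70 ± 0.30 (13 ± 5.38 against 41.4 ± 5.61 CPM, adjusted p = 9.56e-05) and the histone demethylase Kdm4b by 1.69 ± 0.35 (adjusted p = 0.000683). Nos2, the inducible nitric oxide synthase, was higher by 1.47 ± 0.32 (257 ± 162 against 93.2 ± 30.2 CPM, adjusted p = 0.00108), a call lost with libraries summed in pairs (0.0541). In normal medium with LPS Nos2 was higher too, by 1.27 ± 0.31 (adjusted p = 0.0117), a call lost without wild-type library 1 or 2 (0.0666 and 0.0502) and with pairs summed (0.255). Unstimulated knockout cells in normal medium had higher Cited2 by 0.78 ± 0.14 (212 ± 13.1 against 123 ± 14.9 CPM, adjusted p = 0.000399), lost with pairs summed (0.453). Vhl, the recognition subunit of the ubiquitin ligase that removes HIF-1α, was higher in the knockout in low medium by 0.65 ± 0.21 without and by 0.66 ± 0.22 with LPS (adjusted p = 0.0286 and 0.0327). Each Vhl call was lost in 4 of the 8 fits that left out 1 library (0.0545 to 0.0996 and 0.0655 to 0.163), with no filter (0.0562 and 0.0741) and with pairs summed (0.215 and 0.200), and the latter also with only the compared groups fitted (0.0851). The HIF regulator that was lower with LPS was Rack1, a scaffold protein that promotes oxygen-independent loss of HIF-1α, by 0.60 ± 0.16 (adjusted p = 0.00938), lost without knockout library 1 (0.0551) and with pairs summed (0.223). Mpc1, a subunit of the mitochondrial pyruvate carrier, was higher in the knockout in low medium without LPS by 0.72 ± 0.18, and Mxi1, a MYC antagonist, was lower in normal medium with LPS by 1.13 ± 0.21, both lost with pairs summed (0.127 and 0.0539).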

How the data were processed

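The 32 RNA libraries were primed with barcoded oligo-dT, per the labels' protocols, which name no molecular identifier, so limits from counts cover counting error only. The authors deposited raw counts per gene, and the submitters' processing notes name STAR, HTSeq, DESeq2 and mm10, with versions not given in the sources used here. Of 24885 identifiers, 23969 (96.3%) matched a RefSeq symbol on GRCm38.p6 and hold 99.5% of counts. Counts were fitted with edgeR 4.0.16 (TMM scaling, filterByExpr, 8 group means, quasi-likelihood F test, R 4.3.3), which tested 11244 genes with Benjamini-Hochberg adjustment at 0.05. The SE is the absolute log2 change over the square root of F. Alternatives were DESeq2 1.42.0, RLE size factors, no filter, only the compared groups, a replicate block, libraries 1 with 3 and 2 with 4 summed, and each library left out. The test scripts were tested on simulated data.

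The 33 members and all gene lists were chosen with earlier results of these data known. All 33 members are named, and of each of the 3 wider lists at most the 3 genes past the threshold with the largest absolute log2 change in a comparison. Sequences came from the RefSeq promoter table, searched on both strands.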

Additional observations from a re-analysis of the deposited data

Results flagged for a closer look

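Each of the 33 members was looked at in each of the 8 groups of 4 libraries, 264 sets of values that share libraries. In 12 of them 1 library lay far from the other 3, where chance gives about 13.2 at 1 in 20. In unstimulated wild-type cells in normal medium library 1 was far above the others in Gapdh (713 CPM), Mif (595 CPM), Slc16a3 (91.8 CPM), Hk2 (63.6 CPM) and Ankrd37 (15 CPM). In wild-type cells with LPS, library 4 was far below the others in Pfkfb4 in normal medium (2.72 CPM) and in Pdk1 (6.42 CPM) and P4ha2 (0.428 CPM) in low medium. In knockout cells library 2 was lowest in Gapdh in normal medium with LPS (319.6 CPM), and in low medium with LPS it was lowest in Pfkm (0 CPM) and highest in Ankrd37 (3.33 CPM). Library 1 of unstimulated knockout cells in low medium was highest in Pfkp (24.6 CPM).

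The other results are differences between 2 comparisons that passed an interaction test (edgeR, log2 scale). In unstimulated cells the genotype difference was more positive in low than in normal medium for Pfkfb3 (1.15), P4ha1 (1.12) and Vegfa (1.38). Under LPS it was more negative in low medium for Aldoa (−0.70), Bnip3 (−0.91), Gapdh (−1.61), Ldha (−0.90), Mif (−1.01), Pfkl (−1.04), Pgam1 (−1.26), Pgk1 (−1.16), Pkm (−0.90), Tpi1 (−1.02) and Slc16a3 (−1.07). The LPS response in low medium was more negative or less positive in knockout than in wild-type cells for Bnip3 (−0.93), Gpi1 (−0.73), Pfkfb3 (−1.50), Mif (−1.01), Pfkl (−1.30), Pgam1 (−1.08), Pgk1 (−0.81) and Tpi1 (−0.76).

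In wild-type cells the LPS response was more positive in low than in normal medium for Hif1a (0.85), Hk1 (0.94), Hk2 (1.04), Ldha (1.06), Pfkfb3 (3.03), Mif (0.87), P4ha1 (1.68), Pfkl (1.68), Pgk1 (0.91), Slc16a1 (1.74), Slc2a1 (2.07), Slc2a6 (1.40), Pfkp (1.86) and Slc16a3 (1.89). In knockout cells it was more positive for Hif1a (0.98), Hk1 (1.12), Pfkfb3 (1.43), P4ha1 (0.99), Slc2a1 (1.67), Slc2a6 (1.69), Pfkp (1.57) and Slc16a3 (1.30). It was more negative there for Gapdh (−0.98), Gpi1 (−1.04), Pfkm (−1.73) and Pgam1 (−0.84). Of these, Gapdh was lost with RLE size factors (adjusted p = 0.0598), DESeq2 (0.0516) and libraries summed in pairs (0.102). Gpi1 and Pgam1 were lost with pairs summed (0.0806 and 0.170), as were Hif1a, Hk1 and P4ha1 of the more positive ones (0.0749, 0.0563 and 0.114). The fitted values of Adm, 6.28 in wild-type and 3.98 in knockout cells, depend on the prior count because unstimulated libraries were near 0, and they are no bound.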

How the results depend on the processing

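Of 245 member calls over 18 comparisons, 0 changed direction under any alternative. DESeq2 lost 6, RLE size factors 10, no filter 15, only the compared groups 17 of 241 and libraries summed in pairs 78, and 41 were lost in at least 1 fit without a library. With pairs summed, the members called fell to 1 between genotypes in each unstimulated condition, 0 in normal medium with LPS and 8 in low medium with LPS. The tests of differences between comparisons then gave 0 for genotype by medium with and without LPS, 1 for genotype by LPS in low medium, and 9 and 6 for medium by LPS in wild-type and knockout cells. The genotype count in normal medium with LPS was 1 with no filter, 1 with the replicate block and 4 with only the compared groups, which also gave 4 for genotype by LPS in low medium.

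Leaving out 1 library gave these ranges of members called. The medium comparison gave 24 to 25 in wild-type and 24 to 27 in knockout cells without LPS, and 18 to 22 and 23 to 26 with LPS. The LPS comparison gave 11 to 15 and 13 to 14 in normal medium and 22 to 24 and 18 to 21 in low medium. Genotype gave 1 to 3 and 4 to 6 without LPS in normal and low medium, and 1 to 1 and 14 to 17 with LPS. Genotype by medium gave 3 to 3 without and 6 to 11 with LPS, genotype by LPS 0 to 0 and 4 to 9 in the normal and low media, and medium by LPS 14 to 16 in wild-type and 12 to 14 in knockout cells. The genotype count in normal medium without LPS was 1 without knockout library 2 or 4.

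Replicate numbers did not pair the libraries: same-numbered libraries correlated by −0.30 to 0.27 in their deviations, 13 of 48 pairs correlated best with their own number, and 0 of 12 comparisons had every correlation over 0.1. With the replicate block 5 member calls were lost: Pfkp between genotypes in normal medium with LPS (adjusted p = 0.0552), Aldoa in genotype by medium under LPS (0.0629), Eno1 and P4ha1 between media in LPS-treated wild-type cells (0.0543 and 0.0524) and Slc16a1 with LPS in knockout cells in low medium (0.0566).

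Over all genes, pairs summed took the calls between media from 4983 to 2969 in wild-type and from 5422 to 3539 in knockout cells without LPS, and from 5132 to 3327 in wild-type cells with LPS. The response of wild-type cells to LPS in normal medium went from 4061 to 2594. Genotype went from 209 to 39 and from 1879 to 621 without LPS, and from 454 to 43 and from 2147 to 485 with LPS, in normal and low medium. Genotype by medium went from 519 to 97 without and from 617 to 1 with LPS, genotype by LPS from 60 to 0 in normal and from 1800 to 91 in low medium, and medium by LPS from 2649 to 853 and from 3971 to 1702. DESeq2 gave 359 and 687 for genotype in normal medium without and with LPS, 945 for genotype by medium under LPS and 194 for genotype by LPS in normal medium, which was 102 with no filter. Only the compared groups gave 866 and 1037 for genotype with LPS in normal and low medium, and 120 and 959 for genotype by LPS. RLE size factors moved the split of higher to lower from 922 and 1225 to 1159 and 1021 for genotype in low medium with LPS, and from 1494 and 2477 to 1859 and 1828 for medium by LPS in knockout cells. The cause of these changes was not tested. Depth limits Adm, whose unstimulated libraries were at or near 0 counts.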
